A study of Mus musculus with 10 samples.

Results

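The miR-101 family was followed in small RNA libraries of mouse retina through 3 of its mature miRNAs: mmu-miR-101a-3p, mmu-miR-101a-5p and mmu-miR-101b-3p. They were taken by name from a table of 1061 mature miRNAs, and all 3 were found. The libraries came from wild-type C57BL/6J mice, an inbred laboratory strain, whose retinas were collected at postnatal day 34. Each mouse had worn a -20 D lens over 1 eye for 10 days, starting at postnatal day 24, while its other eye had none; such a lens throws the image behind the retina, and eyes that wear it grow myopic. Mice 61, 64, 65, 66 and 68 each gave a left and a right retina, giving 5 libraries per side. Which side wore the lens is not stated in the labels, so right was compared with left within each mouse, and a lens effect on different sides in different mice would cancel.

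miRNAs are cut from a hairpin-shaped precursor whose 5′ and 3′ arms each can give a mature strand, and usually 1 of the strands is kept by Argonaute while the other is degraded. The kept strand recognises messenger RNAs mainly through its seed, bases 2 to 8 from the 5′ end. In miR-101 the 3p strand is known as the guide. It is best known for repressing Ezh2, the catalytic subunit of the Polycomb complex that methylates histones and silences genes, and in human tumours loss of miR-101 has been linked to excess EZH2.

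The mature strands are shown first because their overlap bears on how their reads can be told apart. They are given 5′ to 3′ from RefSeq (GRCm38.p6), with the seed in capitals.
miR-101a-3p: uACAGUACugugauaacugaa
miR-101a-5p: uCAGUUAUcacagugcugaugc
miR-101b-3p: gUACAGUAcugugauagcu
The annotated miR-101b-3p starts 1 base upstream of the miR-101a-3p start, so its seed is shifted by that base, and it has 19 bases against 21 in miR-101a-3p. From the miR-101a-3p start, both hairpins carry the same 15 bases. Over the whole span of miR-101a-3p, the miR-101b hairpin differs by A16G alone (positions counted from the 5′ end of miR-101a-3p, whose base comes first). A related entry, miR-101c on chromosome 9, is identical to bases 2 to 20 of miR-101a-3p. How reads that fit more than 1 of these entries were assigned is not given in the sources used here, so the division of reads among miR-101a-3p, miR-101b-3p and miR-101c is uncertain.

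The hairpins show where each strand lies, with the annotated mature strands in capitals.
Mir101a: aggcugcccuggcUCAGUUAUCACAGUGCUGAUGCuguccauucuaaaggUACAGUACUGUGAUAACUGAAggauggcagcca
Mir101b: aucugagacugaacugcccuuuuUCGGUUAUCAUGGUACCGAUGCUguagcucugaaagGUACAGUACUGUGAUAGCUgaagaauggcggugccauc
In GRCm38, miR-101a-3p lay on the minus strand of chromosome 4 from 101346957 to 101346977, and miR-101a-5p from 101346993 to 101347014. Both were inside an exon of the lincRNA E130102H24Rik on the same strand (GENCODE). miR-101b-3p lay on the plus strand of chromosome 19 from 29135338 to 29135356, in an intron of Rcl1, a protein-coding gene for a ribosomal RNA processing factor, on the same strand.

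A known target shows what both seeds can pair with. The longest annotated 3′ UTR of Ezh2 (chromosome 6, 402 bases in GENCODE) holds 1 copy of GTACTGTA, the complement of the miR-101a-3p seed followed by A, at bases 114 to 121.
Ezh2 site: gaatttgcaaaGTACTGTAacagtaattta
The capitals mark the 8-base match. GTACTGT occurred 2 times in this UTR. The 8-base match contains both GTACTGT, the match to bases 2 to 8 of miR-101a-3p, and TACTGTA, the match to bases 2 to 8 of miR-101b-3p. Searched on the transcript strand over 21020 genes with an annotated 3′ UTR, 2.92% of these UTRs held GTACTGTA, 9.38% held GTACTGT and 12.2% held TACTGTA. These are letter matches only, and messenger RNA was not measured here.

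miR-101a-3p was an abundant retinal miRNA, whereas the other members were far lower. The deposited values are normalised counts in which a miRNA's value largely follows its rank in the library. mmu-miR-101a-3p, the guide strand, was at 34261, 28832, 22384, 27971 and 28832 normalised counts in the left retinas of mice 61, 64, 65, 66 and 68. In the right retinas of the same mice it was at 20982, 20982, 30983, 27971 and 26690. The left retina of mouse 61 was the highest of the 10 libraries, the right retinas of mice 61 and 64 were the lowest, and the sides overlapped. Its rank among the 1061 miRNAs went from 22 to 29, and it made up 0.156% of the normalised total. The 10 libraries showed 7 distinct values for this miRNA, and libraries with the same value had it at the same rank, so an equal value need not mean an equal read number.

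mmu-miR-101a-5p, the strand from the opposite arm of the same hairpin, was at 120, 89.8, 86.2, 74.7 and 88.4 normalised counts in the left retinas of mice 61, 64, 65, 66 and 68. On the right it was at 69.1, 91.0, 68.3, 71.2 and 96.2. The left retina of mouse 61 was again the highest, and the other left values lay inside the range of the right ones. Its rank went from 246 to 287.

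mmu-miR-101b-3p, the strand from the Rcl1 intron, had low values, although its mean had rank 614 of 1061. Its normalised counts were 1.11, 5.68, 3.5, 3.3 and 2.7 on the left and 4.14, 3.07, 2.88, 1.35 and 2.7 on the right, in the same order of mice. Mouse 61 had the lowest left value and the highest right value, and the sides overlapped. All 10 values were above 0, with ranks from 554 to 754, but values this low do not show that the strand was detected. Its opposite strand, miR-101b-5p, was above 0 in 3 of 10 libraries with a highest value of 3.09. miR-101c was above 0 in 9 libraries, with a highest value of 5.46. The order of the members, miR-101a-3p over miR-101a-5p over miR-101b-3p, was the same in every library, with ranges that did not overlap. Of the summed value of the 3 members, miR-101a-3p took between 99.554% and 99.771% per library.

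**Figure D1:**
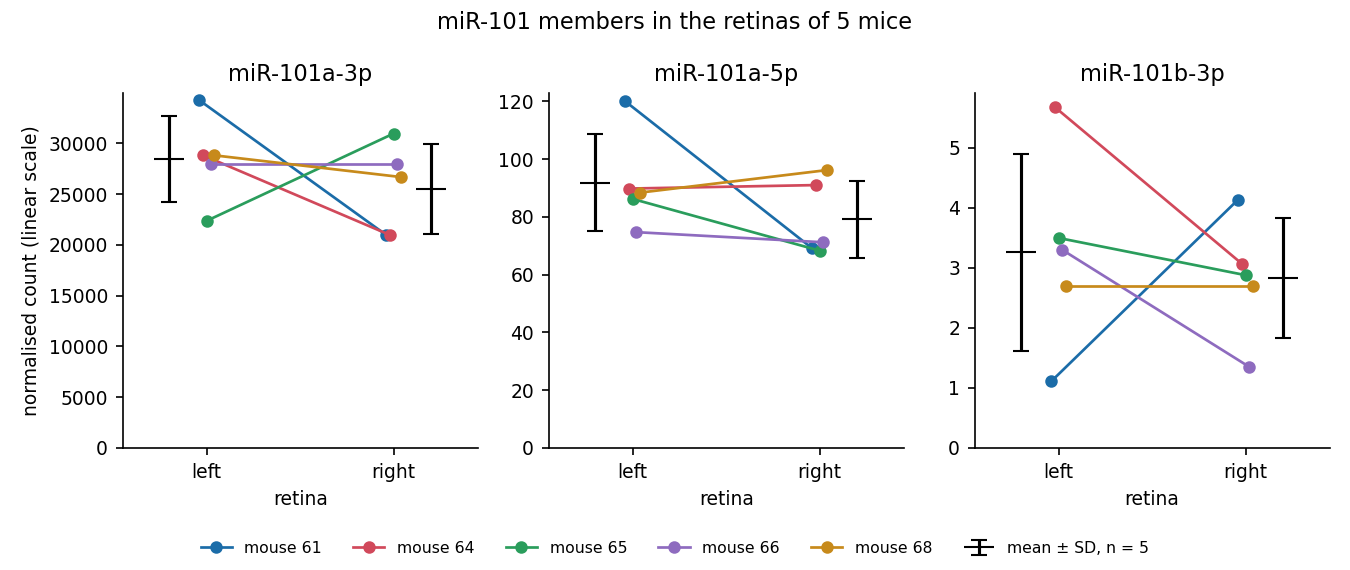
Normalised count (linear axis from 0, a separate scale per panel) of each member in left and right retina, with a line for each mouse and black bars for the mean ± SD of 5 libraries. miR-101a-3p lies between 20982 and 34261, miR-101a-5p between 68.3 and 120 and miR-101b-3p between 1.11 and 5.68, and in each panel the sides overlap.

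The miR-101a hairpin was strongly biased to its 3p arm. In the left retinas of mice 61, 64, 65, 66 and 68 the ratio of miR-101a-3p to miR-101a-5p was 286, 321, 260, 375 and 326, and in the right retinas 304, 231, 453, 393 and 277. The right retina of mouse 65 had the highest ratio and that of mouse 64 the lowest. The mean ratio was 314 ± 43.6 in left and 332 ± 90.1 in right retinas (SD, n = 5 each). With 1 added to each value, the right-minus-left difference of the log2 ratio was 0.05 ± 0.48 (SD over 5 mice; exact sign-flip test, two-sided, p = 0.812, where the smallest p that 5 mice allow is 0.0625). It was above 0 in 3 mice and below 0 in 2. Library preparation ligates adapters better to some sequences than to others, so the ratio is not a molar one. The strands also differ in GC content (33.3% and 45.5%), and the part of the libraries' GC trends in this ratio was not tested. Without mouse 65 the difference was -0.14.

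Among 126 hairpins whose arms both had a mean of at least 10, miR-101a ranked 11 by the ratio of its major to its minor arm. Its ratio of mean levels was 316, where the median hairpin had 9.52 and the extremes were 1.02 and 33202. The 3p arm was the higher one in 57 of these hairpins and the 5p arm in 69. Hairpins with a minor arm under 10, whose ratios can be high, were left out. So were hairpins whose arms do not carry the same name apart from 3p and 5p. The rank and the median thus hold for the hairpins kept, not for all retinal hairpins.

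**Figure D2:**
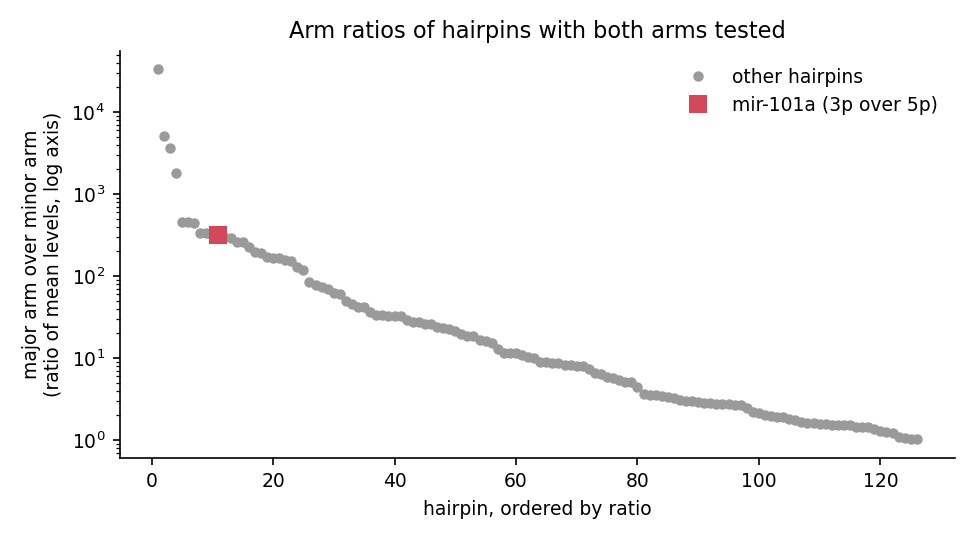
Ratio of the mean level of the major arm to that of the minor arm (log axis) for 126 hairpins with both arms at a mean of at least 10, ordered from high to low; each point is 1 hairpin. The red square is miR-101a, at a ratio of 316 and rank 11.

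The ratio of miR-101a-3p to miR-101b-3p compares the guide strands of the family's hairpins, as far as their reads were separated. It went from 5065 in the right retina of mouse 61 to 30994 in the left retina of that mouse, with a median of 9186 over the 10 libraries. From the lowest to the highest library, miR-101a-3p itself varied 1.63-fold and miR-101b-3p 5.14-fold. With 1 added to each value, which lowers the ratio where miR-101b-3p is low, the right-minus-left difference of the log2 ratio was -0.06 ± 1.15 (SD over 5 mice; exact sign-flip test, two-sided, p = 0.938). Without mouse 61 the difference was 0.43.

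No member had a mean right-minus-left difference beyond the spread of such differences over the mice. miR-101a-3p averaged 28456 ± 4216 normalised counts in left retinas, compared with 25522 ± 4427 in right retinas (SD, n = 5 each). The right-minus-left difference was -0.16 on the log2(value + 1) scale (SE 0.16), with a 95% interval from -0.55 to 0.23 (limma with mouse as a block, adjusted p = 0.958). That interval spans 0.684-fold to 1.17-fold. The right value was lower in mice 61, 64 and 68, equal in mouse 66 and higher in mouse 65.

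miR-101a-5p averaged 91.8 ± 16.8 in left and 79.2 ± 13.3 in right retinas (SD, n = 5 each). Its difference was -0.21 (SE 0.15; 95% interval from -0.56 to 0.15; limma, adjusted p = 0.958), or 0.676-fold to 1.11-fold. The right value was the lower in 3 mice and the higher in 2. miR-101b-3p, at 3.26 ± 1.65 on the left and 2.83 ± 0.999 on the right, fell under the minimum mean of 10 and was not part of this test. When all miRNAs were kept, its difference was -0.10 (SE 0.39; 95% interval from -1.01 to 0.80; limma, adjusted p = 0.973). Of the 2 members tested, 0 passed an adjusted p of 0.05 (limma). The background was 0% of 484 tested miRNAs, with 2.48% at an unadjusted p under 0.05, where neither tested member was. No member had sides that did not overlap, against 0.826% of the tested miRNAs, and none had 1 direction in all 5 mice, against 3.72%.

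The right-minus-left differences of the miR-101a strands did not share a direction in every mouse. The differences of miR-101a-3p were -0.71, -0.46, 0.47, 0.00 and -0.11 in mice 61, 64, 65, 66 and 68. Those of miR-101a-5p were -0.78, 0.02, -0.33, -0.07 and 0.12. Both strands were lower on the right in mouse 61 and had opposite signs in mice 64, 65 and 68. In mice 64 and 68 the miR-101a-5p differences were small. A difference between the profiles of the strands was not tested. Over the 10 libraries, which share mice and a normalisation, Pearson's r of the log2 values of the strands was 0.29, given as a description.

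In mice 61, 64 and 65 the difference of miR-101a-3p ran with a GC trend over the tested miRNAs with a RefSeq sequence. miR-101a-3p has a GC content of 33.3%, against a mean of 49.3% for the 424 tested miRNAs with a RefSeq sequence. In right minus left, the log2 values of these miRNAs changed per 10 points of GC by 0.19 in mouse 61, 0.12 in mouse 64, -0.17 in mouse 65, 0.06 in mouse 66 and 0.04 in mouse 68. GC-poor miRNAs were thus lower on the right in mouse 61 and higher on the right in mouse 65, as miR-101a-3p was. With a linear GC trend taken out of each library, a step chosen after the data were seen, the miR-101a-3p differences became -0.40, -0.26, 0.19, 0.09 and -0.05. Their mean was then -0.09 (limma, adjusted p = 0.949). The pattern with a right value lower in mice 61, 64 and 68 and higher in mouse 65 was shared by 63 of the 484 tested miRNAs (13.0%), and the opposite pattern was found in 82 (16.9%).

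Some libraries stood apart in miRNAs of neighbouring tissues. miR-184-3p, abundant in lens and cornea, was at 22384 in the right retina of mouse 65 against a median of 1969, and miR-133a-3p, a muscle miRNA, was at 1596 in the left retina of mouse 68 against a median of 295. The summed lens and cornea markers were between 999 and 2073 in left and between 1922 and 22409 in right retina. Nearly all of that sum is miR-184-3p, and the other marker, miR-205-5p, was at 25.6 in the right retina of mouse 65, against a median of 27.9. The summed muscle markers were between 295 and 1742 in left and between 279 and 400 in right retina. Of the photoreceptor miRNAs, which mark retina, miR-182-5p and miR-183-5p were at 9840430 and 689415 in every library, as they kept their ranks, and miR-96-5p went from 20982 to 49233. Without mouse 65 the difference of miR-101a-3p was -0.32 (limma, unadjusted p = 0.0392, adjusted p = 0.350), and without mouse 61 it was -0.03. An unadjusted p under 0.05 was not particular to it: without mouse 65 this held for 62 of 484 tested miRNAs, against 12 of 484 with all mice. The part of neighbouring tissue and of GC content in these values was not tested.

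**Figure D3:**
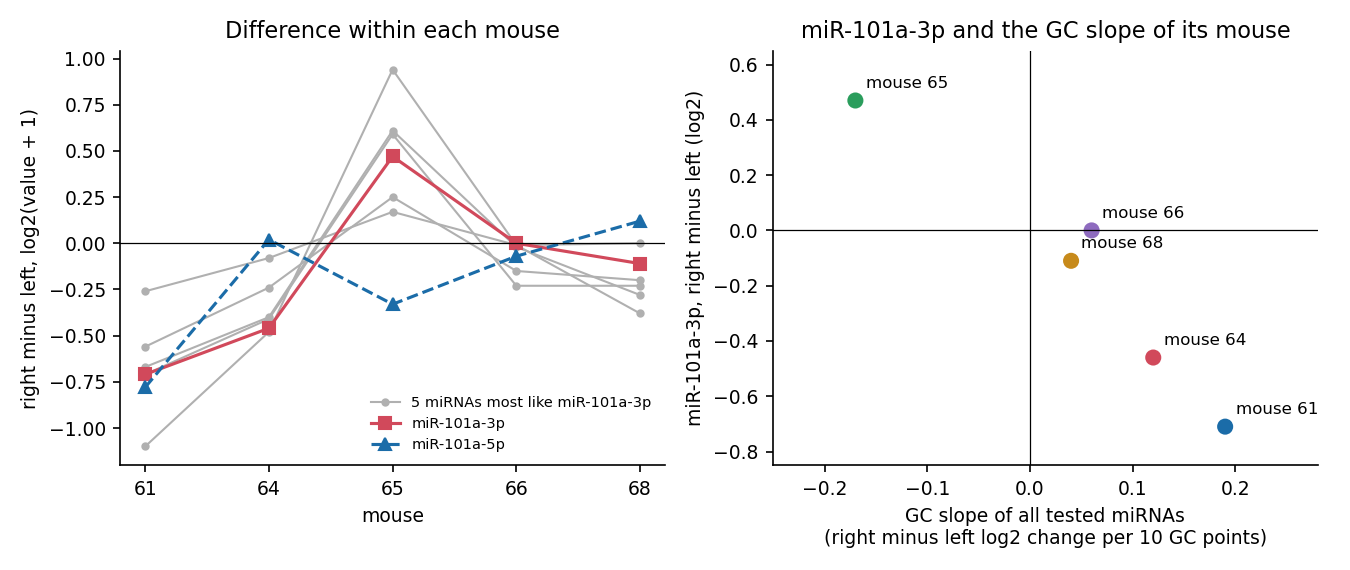
Left, right-minus-left difference on the log2(value + 1) scale in each mouse for miR-101a-3p (red squares), miR-101a-5p (blue triangles) and the 5 miRNAs most like miR-101a-3p (grey), with lines linking the values of a miRNA. Right, the miR-101a-3p difference against the GC slope in the same mouse, with 1 point per mouse. The slope is that of the 424 tested miRNAs with a RefSeq sequence, which the axis title calls all tested miRNAs. Mouse 65 is at 0.47 and a slope of -0.17, and mouse 61 at -0.71 and a slope of 0.19.

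The mouse means of miR-101a-3p were close together, while its single libraries had an ordinary spread. The means of both retinas were 27622, 24907, 26683, 27971 and 27761 normalised counts in mice 61, 64, 65, 66 and 68. Their SD on the log2 scale was 0.07, below the median of 0.19 over the tested miRNAs and above only 11.4% of them. The SD of its right-minus-left differences was 0.45, above the median of 0.33, and a mouse mean averages over the difference between its retinas. Over the 10 libraries the SD of miR-101a-3p was 16.2% of its mean, against a median of 18.8% over the tested miRNAs. No difference among mice was detectable for miR-101a-3p (limma F-test, adjusted p = 0.996) or for miR-101a-5p (adjusted p = 0.788), whose mouse means went from 72.9 in mouse 66 to 94.4 in mouse 61. So 0 of 2 tested members passed, with a background of 1.65% (8 of 484 miRNAs). For miR-101b-3p the mouse means went from 2.32 in mouse 66 to 4.38 in mouse 64, and the test with all miRNAs kept gave an adjusted p of 0.934 (limma).

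The miRNAs next to miR-101a-3p in mean level had smaller differences between the sides, which were not tested against its own. miR-378a-3p, directly above it with 27647 ± 3370 normalised counts (SD over 10 libraries), had a difference of -0.01 (SE 0.05). miR-125a-5p, directly below with 25755 ± 2610, had a difference of 0.01 (SE 0.05). miR-101a-5p stood between miR-326-3p, with 86.3 ± 9.91 and a difference of 0.09 (SE 0.11), and miR-3082-3p, with 83.4 ± 21.9 and a difference of -0.06 (SE 0.14).

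The profile of miR-101a-3p over the 10 libraries was most like that of miR-340-5p, with a Pearson's r of 0.94 on the log2 scale. The next were miR-136-5p (0.92), miR-181c-3p (0.91), miR-33-5p (0.87) and miR-708-5p (0.86), out of 479 tested miRNAs that varied. miR-340-5p, at 1535 to 2748 normalised counts, had differences of -0.71, -0.41, 0.59, -0.23 and -0.23 in mice 61, 64, 65, 66 and 68. miR-136-5p, an imprinted miRNA of the Dlk1-Dio3 region, had -0.67, -0.40, 0.61, -0.02 and -0.28. All 5 of these miRNAs were lower on the right in mice 61 and 64 and higher in mouse 65. Their GC content went from 27.3% for miR-340-5p to 59.1% for miR-181c-3p. Over the tested miRNAs with a RefSeq sequence the mean was 49.3%. These values describe libraries that share mice and a normalisation, and the 5 were picked for their likeness.

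The profile of miR-101a-5p was most like those of miR-770-5p (r = 0.76), miR-34c-5p (0.73), miR-30e-5p (0.73), miR-30d-5p (0.72) and miR-125a-5p (0.71). For miR-101b-3p the values were 0.80 for miR-3084-3p, 0.77 for miR-216b-5p, 0.69 for miR-1224-5p, 0.67 for miR-6948-3p and 0.63 for miR-361-5p, at levels too low to be read further. The r between miR-101a-3p and miR-101b-3p was -0.47.

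In the table, miR-144-3p was the other miRNA found with bases 2 to 7 of miR-101a-3p, among the 909 of 1061 miRNAs with a RefSeq sequence. It is shown for its seed, which differs from that of miR-101a-3p in the last base.
miR-144-3p: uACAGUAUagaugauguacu
miR-144-3p is an erythroid miRNA and was at 11.5 ± 5.97 normalised counts (SD over 10 libraries), far below miR-101a-3p. Its right-minus-left difference was -0.55 (SE 0.38; limma, adjusted p = 0.958), with -1.30, -1.33, 0.77, -0.04 and -0.85 in mice 61, 64, 65, 66 and 68. The right value was the lower in 4 mice and the higher in mouse 65. Its GC content is 30.0%. The summed erythrocyte markers were between 2604 and 3003 in left and between 2555 and 4420 in right retina. Nearly all of that sum is miR-486a-5p, with a mean of 3014 and its highest value in the right retina of mouse 68. The other markers, miR-451a (mean 48.6) and miR-144-3p, were highest in the left retina of mouse 61. The part of erythrocytes in the miR-144-3p difference was not tested. miR-582-5p shared bases 2 to 7 of miR-101b-3p and was at 22.3 ± 3.89 (SD over 10 libraries).

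Other miRNAs reported to repress Ezh2 were compared as a list of 13, including miR-101a-3p and miR-101b-3p. By mean level miR-101a-3p had rank 6. Above it were let-7a-5p at 403943, miR-26a-5p at 280072 and miR-124-3p at 82241 normalised counts, and below these miR-26b-5p at 63745 and miR-30d-5p at 50623. Of the 11 tested miRNAs of the list outside the miR-101 family, 3 had a right-minus-left difference above 0, 7 below 0 and 1 at 0, and 0 passed the test (limma; 0 were at an unadjusted p under 0.05). Their median was -0.03, from -0.14 for miR-30d-5p to 0.06 for let-7c-5p. Over all 484 tested miRNAs the median was -0.01, with 224 above and 253 below 0. let-7a-5p had a difference of -0.07 (SE 0.04) and miR-124-3p of 0.02 (SE 0.04). miR-26a-5p had the same normalised value in every library, which need not mean an equal read number. Between mice, miR-26b-5p passed (limma F-test, adjusted p = 0.00167), and was named after its values were seen. Its right value was lower in 2 mice, higher in 0 and equal to the left in the others. Such equal values, which need not mean equal read numbers, narrow the spread within mice that the F-test uses.

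**Figure D4:**
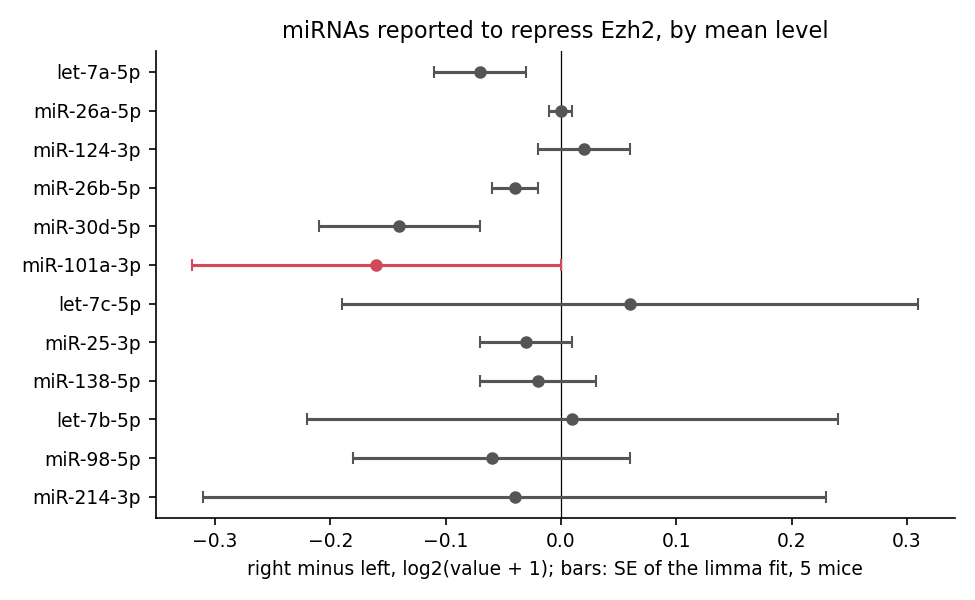
Right-minus-left difference on the log2(value + 1) scale, with the SE of the limma fit over 5 mice as bars, for the 12 tested miRNAs of the Ezh2 list, ordered by mean level from the top. miR-101a-3p (red) is at -0.16, and the other miRNAs lie between -0.14 and 0.06.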

How the data were processed

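Each of 10 retinas gave 1 TruSeq Small RNA library, from an input of 50 ng, per the labels' protocols. The submitters' processing notes list Partek and Bowtie, with no version, and the builds GRCm38 and mm10; for trimming, the miRNA annotation and read assignment, the method is not given in the sources used here. Values in the deposited table are a signal derived from read counts, which its name calls normalised counts. At 342 ranks every library had 1 common value. These include all ranks beyond 899, where every library was at 0, which do not bear on the normalisation. The common values above 0, and totals from 17312269 to 17312436, are as after quantile normalisation. The depth is thus unknown and no counting interval is given.

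Retinas that share a mouse number are the eyes of 1 animal, so mouse was a block. Their deviations from the side means correlated by 0.09 (mouse 61), 0.38 (64), 0.16 (65), 0.29 (66) and 0.14 (68), against a median of -0.08 for eyes of different mice. Deviations from a side mean sum to 0, so correlations between different mice tend to fall below 0 by construction. The block rests on the shared mouse numbers, not on this comparison. The log2(value + 1) scale, on which changes of low miRNAs are understated, was used for 484 of 1061 miRNAs with a mean of at least 10. The model was limma's (3.58.1, under R 4.3.3) with a mean-variance trend, two-sided tests and Benjamini-Hochberg adjustment over all of them at 0.05, and an F-test for mouse. It was tested on simulated data. For ratios, signs were flipped exactly over 5 mice.

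The members, lists and tests were chosen with earlier results of these data known. Named miRNAs are the 3 members, the 5 tested miRNAs with the highest Pearson's r to each, those with the same bases 2 to 7 or a miR-101 name, the neighbours in mean level, and the 3 most abundant others of the Ezh2 list plus any that passed. miR-30d-5p, let-7c-5p and miR-26b-5p of that list were named after their values were seen. Alternatives changed the pseudocount, filter, scaling, trend, block and mice. Positions in the deposited table matched RefSeq (GRCm38.p6) when its end was read as 1 base beyond the last.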

Additional observations from a re-analysis of the deposited data

How the results depend on the processing

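No right-minus-left call changed: 0 miRNAs passed limma's test under each of 8 alternative settings, including no replicate block, and without each mouse in turn. With no replicate block the differences, -0.16 for miR-101a-3p and -0.21 for miR-101a-5p, could not change, as each mouse gave 1 library per side. Only their tests could, with an unadjusted p of 0.251 and 0.188 (limma). The unadjusted p was under 0.05 for 5 of 260 miRNAs at a mean of at least 100 and for 25 of 1061 with no filter. With the other settings this held for 12 to 19 of 484. It held for 62 of 484 without mouse 65, and for 7 to 10 of 484 without any other mouse. With each mouse left out in turn, miR-101a-3p went from -0.32 to -0.03 and miR-101a-5p from -0.29 to -0.06. miR-101b-3p, which has no test under the filter, went from -0.45 to 0.09. The log2 ratio of miR-101a-3p to miR-101b-3p went from -0.29 to 0.43, with 0.43 without mouse 61, and that of miR-101a-3p to miR-101a-5p from -0.14 to 0.18, with -0.14 without mouse 65. The differences of the ratios, -0.06 and 0.05, likewise could not change with no replicate block (exact unpaired permutation test, two-sided, p = 0.897 and 0.825). The count of miRNAs that differed among mice was 8, 5 with no mean-variance trend and 3 to 7 with a mouse left out, which also leaves fewer libraries. With the other 6 settings it was 8 to 10. miR-101a-5p has no test at a mean of at least 100, and miR-101b-3p only with no filter. Depth is unknown, and values near those of miR-101b-3p are the least precise.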
